A study of Rattus norvegicus with 6 samples.

Results

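The lipoprotein genes described here were the apolipoprotein gene Apoe and 9 further genes of lipoprotein binding, export, hydrolysis and uptake, namely Apod, Clu, Apoc1, Abca1, Abcg1, Lpl, Lrp1, Lrp2 and Scarb1. They were selected on the measured level of Apoe, which held more counts than any other gene in every library, and on their names, by symbol from a table of 32883 genes. The 10 symbols corresponded to 11 rows, since Apoc1 was listed on 2 of them, and 10 of these rows were among the 14352 genes that passed the filter on low counts. The tissue was the vestibular epithelium of adult male Long-Evans rats, for which the labels name no genetic modification in either group. In one group, IDPN-4wk, 3 rats received 3,3'-iminodipropionitrile (IDPN) at 20 mM in the drinking water over 4 weeks, a nitrile that damages inner ear hair cells (HCs), and 3 control rats drank water without it. Each library came from 1 animal and held 2 utricles and 6 cristae as whole tissue, freed of adjacent tissue at dissection. It contained HCs, supporting cells, dark cells, glia, stroma and blood cells together, in proportions that were not measured. The question of the comparison was which genes change during chronic ototoxic stress.

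Lipoproteins are particles of lipid and protein that carry cholesterol and other lipids between cells. Cells export sterols and phospholipids through ATP-binding cassette transporters onto apolipoproteins, lipases hydrolyse the triglycerides of the particles, and lipoprotein receptors of the cell surface take the particles up by binding apolipoproteins such as apolipoprotein E. In nervous tissue, glia are a main source of apolipoprotein E and of apolipoprotein D.

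Depth ranged from 13358678 to 18561991 counts per library, and the labels placed all 6 libraries in 1 batch. HC markers were present in every library, and 9 of the 10 tested had a log2-Fold change below 0 in IDPN-4wk. With an edgeR p adjusted over all genes (Padj) under 0.05 there were 7 lower, against 11.5% of all genes, and 5 of these were also lower by more than 1.5-fold, against 6.62% of all genes. Their sum went from 1745 to 1869 CPM (counts scaled to a common library size) in controls to 883 to 1168 CPM. Scaling by trimmed mean of M values (TMM) gave factors from 0.955 to 0.968 in controls and from 1.03 to 1.05 in IDPN-4wk. Of all genes that passed the thresholds given with the comparison, 68.1% were lower under this scaling and 50.6% when libraries were scaled by their total alone, and the log2-Fold changes of all genes had a median of 0.02 and 0.13 respectively. The titles carry animal codes whose prefix was shared by the 3 treated rats and differed from those of the controls. What it marks is not given by the labels, and a cage or litter, if that is what it marks, cannot be told apart from treatment.

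Of the 10 genes, Lrp2 fell and Apoc1 rose in IDPN-4wk past both thresholds, which were a Padj of edgeR below 0.05 and more than 1.5-fold in size. Across all genes tested, 9.71% passed both thresholds, 6.62% lower and 3.09% higher, so the count of 2 in 10 is close to what the whole table gave. Apoe and Apod also fell with a Padj under 0.05, by less than 1.5-fold. By Padj alone the genes that moved thus numbered 4 of 10, against 19.4% of all genes, with 3 lower against 11.5% and 1 higher against 7.89%. An unadjusted p under 0.05 was reached by 5 of the 10, against 33.1% of all genes. The libraries of the groups did not overlap for 6 of the 10 genes, against 37.8% of all genes. When scaled by library total alone, Abca1 and Lrp1 overlapped, which left Apoe, Apod, Apoc1 and Lrp2, or 4 of 10 against 43.5% of all genes. The median log2-Fold change of the 10 genes was -0.13, with 7 lower and 3 higher. Of the 8 genes that did not pass both thresholds, 7 had a 95% interval of the log2-Fold change that lay within 0.58 of 0, which is 1.5-fold, and the interval of Apoe reached -0.60. In this bulk tissue, fewer cells of a type and less RNA per cell cannot be told apart for any of these genes.

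**Figure D1:**
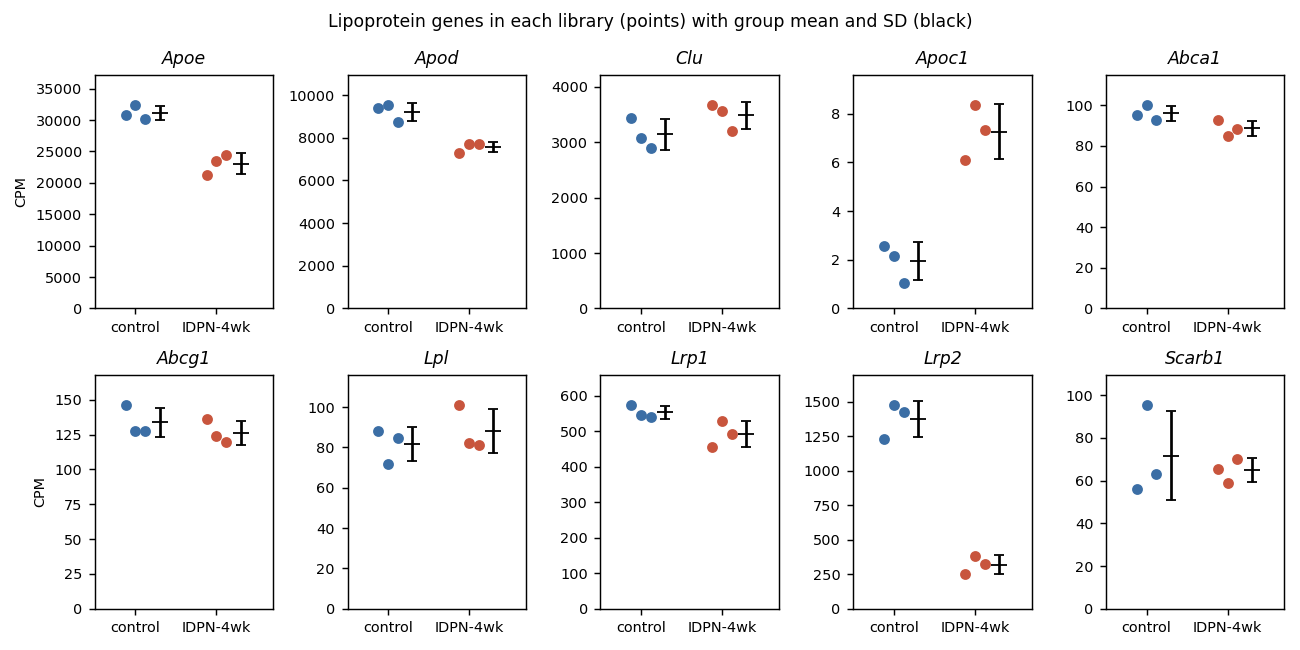
Normalised level (CPM, linear axis from 0) of the 10 lipoprotein genes, with a point for each of the 3 control and 3 IDPN-4wk libraries and the group mean with SD in black beside them. The libraries of Lrp2 and Apoc1 lie far apart between the groups, those of Apoe, Apod, Abca1 and Lrp1 are separate by a smaller distance, and those of Clu, Abcg1, Lpl and Scarb1 overlap.

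Among the apolipoproteins, Apoe (ENSRNOG00000018454) encodes the ligand by which many lipoprotein particles are bound by their receptors. As a description of what put it here, it held from 2.92 to 3.09% of all counts in control libraries and from 2.21 to 2.51% in IDPN-4wk libraries, and in each it had from 1.30 to 1.60 times the counts of Coch, which came next. These ranks are of counts that were not divided by transcript length. Apoe was at 30814.5, 32393 and 30145 CPM in the control rats and at 21251, 23462 and 24462 CPM in the IDPN-4wk rats. All 3 treated libraries lay below all 3 controls. The group levels were 31117 ± 1154 CPM and 23058 ± 1643 CPM (SD, n = 3 each), so that IDPN-4wk was at 74.1% of control. The log2-Fold change was -0.43 (SE 0.08, 95% interval -0.60 to -0.26, edgeR Padj 0.00301). It stayed between -0.49 and -0.38 when each library was left out in turn, with an edgeR Padj of at most 0.0165. With libraries scaled by their total alone it was -0.32 (edgeR Padj 0.00882).

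Apod (ENSRNOG00000048273) encodes a lipocalin that binds arachidonic acid and other small hydrophobic molecules. It was at 9402, 9535 and 8752 CPM in controls and at 7291, 7705 and 7726 CPM in IDPN-4wk, again with no overlap. The log2-Fold change was -0.29 (SE 0.07, 95% interval -0.44 to -0.13, edgeR Padj 0.0170), which left 82.1% of the control level. This call was lost without IDPN-4wk replicate 1 (-0.27, edgeR Padj 0.0675) and with scaling by library total alone (-0.18, edgeR Padj 0.0785).

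Clu (ENSRNOG00000016460), which encodes the extracellular chaperone clusterin or apolipoprotein J, was at 3441, 3080 and 2904 CPM in controls and at 3673, 3573 and 3208 CPM in IDPN-4wk. Its groups overlapped, and the log2-Fold change of 0.15 did not pass the test (SE 0.09, 95% interval -0.04 to 0.34, edgeR Padj 0.255). With scaling by library total alone it was 0.26 (edgeR Padj 0.0489). Its ratio to Apoe within a library does not depend on how libraries are scaled. On the log2 scale this ratio was from -3.39 to -3.16 in controls and from -2.93 to -2.53 in IDPN-4wk, a difference of 0.58 with no overlap. The same ratio of Apod to Apoe differed by 0.15, also with no overlap.

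Apoc1 (ENSRNOG00000018426) encodes a small apolipoprotein that slows the uptake of particles by receptors and is made by liver and by macrophages. It had 40, 31 and 15 counts in controls, or 2.58, 2.17 and 1.06 CPM. In IDPN-4wk it had 85, 162 and 114 counts, or 6.11, 8.36 and 7.34 CPM. Each treated library was above each control, and the mean rose from 1.94 ± 0.786 to 7.27 ± 1.12 CPM (SD, n = 3 each). The log2-Fold change was 1.90 (SE 0.31, 95% interval 1.21 to 2.59, edgeR Padj 0.00198), and it was between 1.61, without control replicate 3, and 2.17, without control replicate 1. The other row with this symbol (ENSRNOG00000051784) had at most 1 count in a library and was not tested. Reads that match both copies, if any, are divided by the counting. Their number was not measured, so the value of Apoc1 may be less certain than those of the other genes.

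Macrophage markers were examined beside this result. Of the 12 on the list, all were tested and detected, 2 rose past both thresholds, against 3.09% of all genes, and none fell past them, and 5 had a log2-Fold change below 0. Their summed level was from 128 to 177 CPM in controls and from 140 to 239 CPM in IDPN-4wk. The lowest was Cd163, a scavenger receptor of macrophages (log2-Fold change -1.06, edgeR Padj 0.101), which passed both thresholds with DESeq2 (-1.07, Padj 0.0398) and in edgeR without control replicate 3 (-1.39, Padj 0.0357). The markers that rose were C1qb, a subunit of complement C1q (log2-Fold change 0.71, edgeR Padj 0.0271), and Lyve1, a hyaluronan receptor of lymphatic vessels and some macrophages (log2-Fold change 1.59, edgeR Padj 1.78e-05). C1qb lost its call without control replicate 3 (0.53, edgeR Padj 0.0864) and without IDPN-4wk replicate 1 (0.52, edgeR Padj 0.116). The log2 ratio of Apoc1 to C1qb was from -3.52 to -2.83 in controls and from -2.46 to -1.42 in IDPN-4wk, with every treated library above every control. The part of macrophages in the rise of Apoc1 was not tested.

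Some markers of glia and supporting cells fell as well. Of 10 markers of Schwann cells and other glia, none of which was at 0, 2 fell past both thresholds (6.62% of all genes did) and none rose past them. By Padj under 0.05 alone, 7 of these 10 were lower, against 11.5% of all genes, and none was higher, against 7.89%. The median of the 10 log2-Fold changes was -0.49, and the summed level was 13630 to 16968 CPM in controls and 9843 to 13433 CPM in IDPN-4wk. The transcription factor Sox10 was the 1 glial marker with a value above 0 (log2-Fold change 0.19, edgeR Padj 0.113). With library total alone Sox10 was at 0.30 with a Padj under 0.05 (edgeR Padj 0.0150). Of 10 supporting cell markers, also all detected, 5 fell past both thresholds, against 6.62% of all genes, and 6 were lower and none higher by Padj alone. The sum of the supporting cell markers went from 12151 to 13655 CPM down to 6793 to 8273 CPM. Much of this sum was Otog, which encodes otogelin of the membranes over the HCs, at 6262 CPM of 12729 CPM on average in controls (log2-Fold change -0.97, edgeR Padj 2.47e-04). The transcription factors Sox9 and Hes1 had values above 0 that did not pass the test (log2-Fold changes 0.24 and 0.36, edgeR Padj 0.0540 and 0.0783). Sox9 had a Padj under 0.05 with upper quartile scaling (0.0320), library total alone (0.0104) and DESeq2 (0.0321), and Hes1 with library total alone (0.0258). Both also did without IDPN-4wk replicate 3 (edgeR Padj 0.0405 and 0.00831). The part of glia and supporting cells in the lower Apoe and Apod was not tested.

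Apoe and Apoc1 lie beside each other in a cluster of apolipoprotein genes and moved in opposite directions, and Lrp2 had the largest change of the 10 genes. For this reason the 160 bases that precede a transcription start of these 3 genes are shown, from RefSeq for rat build GRCr8 (the counts were made on build Rnor6.0). All 3 genes lie on the minus strand, and the sequences read 5′ to 3′ in the direction of transcription. Capitals mark the letters GGGCGG of a GC box, the motif of Sp1-type factors, on either strand.
Lrp2, chr3:74754536-74754695: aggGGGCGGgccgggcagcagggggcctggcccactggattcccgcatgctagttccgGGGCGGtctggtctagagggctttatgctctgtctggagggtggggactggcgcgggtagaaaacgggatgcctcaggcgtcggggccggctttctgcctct
Apoc1, chr1:88478306-88478465: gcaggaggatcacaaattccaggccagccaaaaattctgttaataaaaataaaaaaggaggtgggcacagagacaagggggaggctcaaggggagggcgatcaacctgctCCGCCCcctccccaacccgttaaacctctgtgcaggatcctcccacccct
Apoe, chr1:88484700-88484859: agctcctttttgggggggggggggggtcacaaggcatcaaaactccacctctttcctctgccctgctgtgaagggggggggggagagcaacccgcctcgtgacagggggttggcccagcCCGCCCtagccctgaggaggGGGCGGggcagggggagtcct
The table held promoters of 6 of the 10 genes (Apoe, Apod, Apoc1, Abca1, Lrp1 and Lrp2), with 3 starts for Apoe, of which the second is shown, and 2 for Apoc1, of which the first is shown. Where a gene had several starts, the start with the most motif matches in its 160 bases was chosen, and the first of these on a tie. The marked letters in the Apoe sequence therefore depend on that choice. GC box letters occurred within the 250 bases upstream of 7 of the 9 starts of these genes, against 30.5% of the 33469 promoters in the table. The starts without them were that of Apod and the first of the 3 of Apoe. Several of the 9 starts belong to the same gene, and by gene these letters occurred for 5 of the 6. The letters TATAAA, searched on both strands as well, occurred for Apod and Abca1 and in 12.9% of all promoters. These matches describe the letters and not a bound site.

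The 5 protein-coding genes on either side of Apoe in the gene order of GRCr8 were read as well, a set chosen after values of these genes had been seen. From the Apoc1 side outward these were Apoc1, Apoc4, Apoc2, Clptm1 and Relb, and on the other side Tomm40, Nectin2, Bcam, Cblc and Bcl3. Of the 10 neighbours 9 were tested, and Apoc1 and Bcl3, an inhibitor of kappa B family member, rose past both thresholds, as 3.09% of all genes did. Apoc1 is 1 of the 10 lipoprotein genes and was counted with them already. Bcl3 went from 5.90 ± 0.172 to 10.5 ± 2.63 CPM (SD, n = 3 each) and passed with a log2-Fold change of 0.83 and an edgeR Padj of 0.0215, and this call was lost in 5 of the 6 fits that left out a library, all but that without IDPN-4wk replicate 3. Apoc4, a minor apolipoprotein, was at 0.742 ± 0.305 and 1.42 ± 0.338 CPM with a log2-Fold change of 0.93 that did not pass the test (95% interval -0.04 to 1.90, edgeR Padj 0.169). Apoc2, the activator of lipoprotein lipase, had at most 2 counts in a library, which is under the limit that a count of 0 allows. Tomm40, the mitochondrial import pore, had a log2-Fold change of 0.12, and Bcam had one of -0.01.

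**Figure D2:**
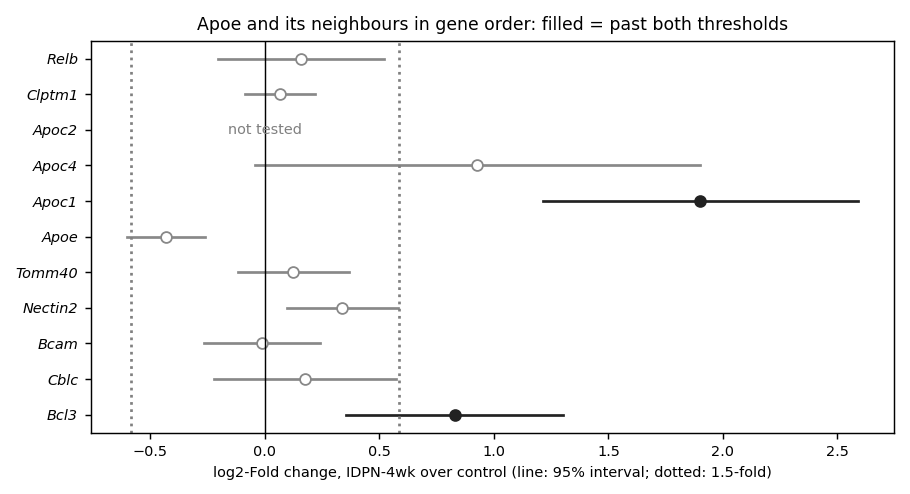
Log2-Fold change of IDPN-4wk over control (points) with 95% intervals (lines) for Apoe and its 10 protein-coding neighbours in gene order, with dotted lines at 1.5-fold and filled points past both thresholds. Apoe at -0.43 stands on the lower side beside Apoc1 at 1.90, and Apoc2 was not tested.

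The genes whose profile over the 6 libraries was most like that of Apoe were Veph1, Trappc1, Suclg2, Prkcz and Zbtb20. Likeness was the root mean square difference of log2 CPM after each gene was centred on its mean, over 4397 genes with a mean of at least 50 CPM. It was from 0.0349 for Veph1 to 0.0374 for Zbtb20, and the log2-Fold changes of the 5 genes were from -0.44 to -0.38. Since all 6 libraries share their treatment with the comparison, this is a description of the profile.

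Neither of the exporters passed the test. Abca1 (ENSRNOG00000018126), which loads cholesterol and phospholipid onto lipid-poor apolipoproteins, was at 95.2, 100 and 92.9 CPM in controls and at 92.5, 85.0 and 88.4 CPM in IDPN-4wk. The treated libraries lay just below the controls without overlap, but the log2-Fold change of -0.12 did not pass the test (SE 0.07, 95% interval -0.28 to 0.04, edgeR Padj 0.289) and was -0.0080 with scaling by library total alone, where the groups overlapped. Abcg1 (ENSRNOG00000001158), which passes sterols to high-density lipoprotein (HDL), was at 146, 127 and 128 CPM in controls and at 136, 124 and 119 CPM in IDPN-4wk. Its groups overlapped, with a log2-Fold change of -0.08 (SE 0.08, 95% interval -0.26 to 0.10, edgeR Padj 0.526). The log2 ratio of Abcg1 to Abca1 within a library differed by 0.04 between the groups, and overlapped.

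Lpl (ENSRNOG00000012181), the lipase that hydrolyses the triglycerides of circulating particles, was at 88.2, 72.0 and 84.7 CPM in controls and at 101, 82.2 and 81.4 CPM in IDPN-4wk. The groups overlapped, and the log2-Fold change was 0.11 (SE 0.11, 95% interval -0.12 to 0.34, edgeR Padj 0.512). Gpihbp1, which anchors this lipase to capillaries, had 0 counts in all 6 libraries, which allows up to 0.155 to 0.216 CPM depending on the library.

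**Figure D3:**
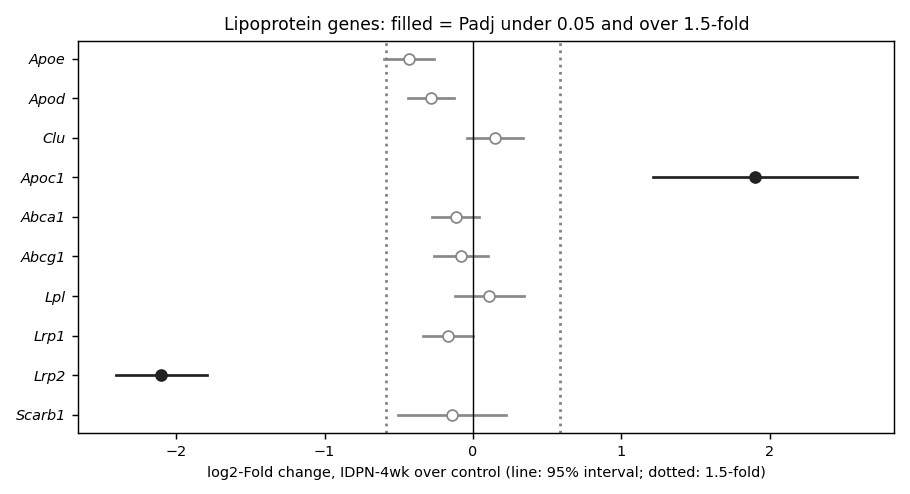
Log2-Fold change of IDPN-4wk over control (points) with 95% intervals (lines) for the 10 lipoprotein genes, with dotted lines at 1.5-fold and filled points past both thresholds. Lrp2 at -2.10 and Apoc1 at 1.90 lie outside the dotted lines, and the other points lie between -0.43 and 0.15.

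Of the receptors, Lrp2 (ENSRNOG00000056184) changed the most. It encodes megalin, a large endocytic receptor of the apical membrane of absorptive and ion-transporting epithelia, known in the inner ear from the marginal cells of the stria vascularis. It was at 1228, 1475 and 1429 CPM in controls and at 251, 385 and 326 CPM in IDPN-4wk. The highest treated library lay far below the lowest control. The mean fell from 1377 ± 132 to 321 ± 67.0 CPM (SD, n = 3 each), or to 23.3% of control. The log2-Fold change was -2.10 (SE 0.14, 95% interval -2.41 to -1.79, edgeR Padj 1.08e-05), and it was between -2.25 and -1.96 when each library was left out in turn. By count, Lrp2 ranked from 55 to 63 among all genes in controls and from 281 to 578 in IDPN-4wk.

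Lrp1 (ENSRNOG00000025053), a receptor of the same family that is found in most cell types and clears many ligands besides lipoproteins, was at 572, 546 and 540 CPM in controls and at 455, 528 and 491 CPM in IDPN-4wk. The groups did not overlap under TMM scaling, and the log2-Fold change of -0.17 did not pass the test after adjustment (SE 0.08, 95% interval -0.34 to -0.0026, edgeR Padj 0.145). Within libraries, the log2 ratio of Lrp2 to Lrp1 was from 1.10 to 1.44 in controls and from -0.86 to -0.46 in IDPN-4wk. In every control Lrp2 therefore had more counts than Lrp1, and in every treated library it had fewer.

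Scarb1 (ENSRNOG00000000981), the HDL receptor that takes up cholesteryl esters, was at 56.2, 95.3 and 63.3 CPM in controls and at 65.3, 59.0 and 70.2 CPM in IDPN-4wk. Control replicate 2 was the highest library and the groups overlapped. The log2-Fold change was -0.14 (SE 0.17, 95% interval -0.51 to 0.22, edgeR Padj 0.588) and turned to 0.12 without control replicate 2.

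Markers of dark cells, the potassium-secreting cells that border the cristae and utricles, and of the melanocytes beneath them were read beside Lrp2. Of 8 markers tested, 3 fell past both thresholds, against 6.62% of all genes, and none rose past them, the sum was from 1936 to 2510 CPM in controls and from 1382 to 1536 CPM in IDPN-4wk, and none of those in the table was at 0. The potassium channel Kcnq1 went from 90.8 ± 15.3 to 24.7 ± 5.01 CPM (log2-Fold change -1.87, edgeR Padj 3.73e-05), and the cotransporter Slc12a2 from 501 ± 68.7 to 240 ± 42.7 CPM (log2-Fold change -1.06, edgeR Padj 4.11e-04). The third was Atp1b2, a subunit of the sodium pump (log2-Fold change -0.60, edgeR Padj 0.00365), which was under 1.5-fold without control replicate 2 (-0.50), IDPN-4wk replicate 1 (-0.58) or IDPN-4wk replicate 3 (-0.54), and with scaling by upper quartile (-0.56) or library total alone (-0.49). Kcne1, the partner subunit of Kcnq1, was at 17.7 ± 4.52 and 11.1 ± 4.51 CPM and did not pass the test (log2-Fold change -0.66, edgeR Padj 0.114), though it did with DESeq2 (-0.68, Padj 0.0491) and in edgeR without IDPN-4wk replicate 2 (-1.05, Padj 0.0156). None of the 4 melanocyte markers passed, with log2-Fold changes from -0.87 for Tyr (edgeR Padj 0.0729) to 0.34 for Tyrp1 (edgeR Padj 0.593), enzymes of pigment synthesis.

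Lrp2 kept its proportion to Kcnq1 more closely than to Slc12a2. The log2 ratio of Lrp2 to Kcnq1 was from 3.78 to 4.20 in controls and from 3.55 to 3.82 in IDPN-4wk, which overlapped, while that of Lrp2 to Slc12a2 fell by 1.05 with no overlap. By profile, Kcnq1 was the third of the genes most like Lrp2, after Cpq, a peptidase, and Lamb3, a laminin chain of basement membranes, and before Rprm and Rspo3. This likeness and the ratio to Kcnq1 describe the same libraries and the same treatment contrast, so neither adds to the other. These profiles were read for Lrp2 after its values had been seen, and their root mean square differences were from 0.146 to 0.226. The part of dark cells in the fall of Lrp2, and that of how much bordering tissue each dissection kept, was not tested.

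None of 3 genes for proteins that act with megalin passed the test with all 6 libraries under TMM scaling. Lrpap1, the chaperone that keeps receptors of the family free of ligand during their synthesis, was at 317 ± 17.7 and 327 ± 11.2 CPM (log2-Fold change 0.05, edgeR Padj 0.698). The endocytic adaptor Dab2 was higher in value (log2-Fold change 0.28, 95% interval 0.06 to 0.49, edgeR Padj 0.0729), with a Padj of 0.0488 under upper quartile scaling, of 0.0185 with library total alone and of 0.00762 without IDPN-4wk replicate 3. Cubn, the co-receptor cubilin, was at 1.81 ± 0.255 and 3.09 ± 2.11 CPM with a log2-Fold change of 0.77 (edgeR Padj 0.269), and its highest library, IDPN-4wk replicate 3, was at 5.47 CPM.

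**Figure D4:**
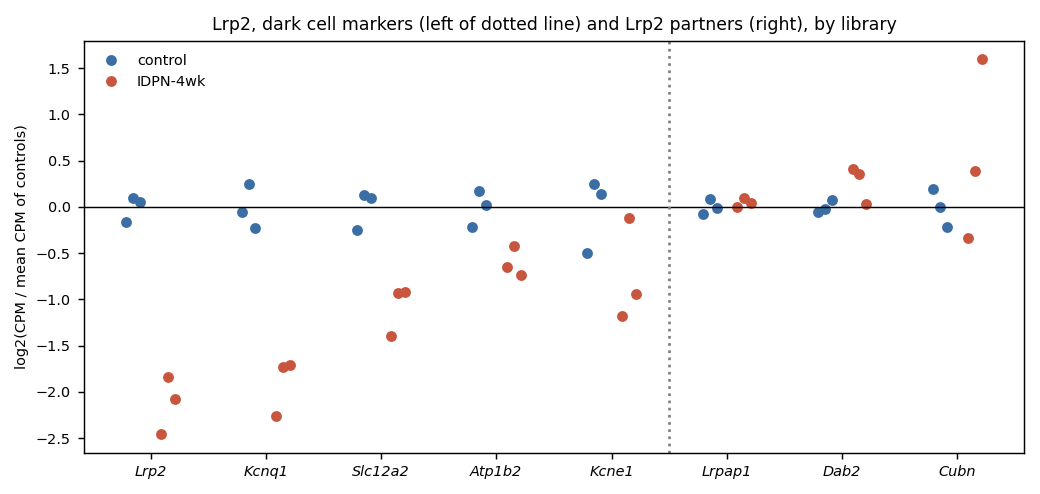
Level of each gene in each library as the log2 of its CPM over the mean CPM of the controls, for Lrp2 and 4 dark cell markers (left of the dotted line) and 3 partners of megalin (right), with controls in blue and IDPN-4wk in red. Lrp2, Kcnq1, Slc12a2 and Atp1b2 are lower in all 3 treated libraries than in any control, whereas the treated libraries of Kcne1, Lrpap1, Dab2 and Cubn overlap the controls.

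Beyond the 10 genes, 11 lists of other genes of lipoprotein and sterol handling held 96 tested genes, of which 7 fell and 3 rose past both thresholds. With scaling by library total alone, 5 fell and 4 rose, and with upper quartile scaling 7 and 4. The main count is 10.4%, beside 9.71% of all genes, and their median log2-Fold change was 0.01. Among other lipoprotein receptors and sortilin receptors, 2 of 14 fell past both thresholds, against 6.62% of all genes, and none rose. These were Lrp8, the apolipoprotein E receptor 2 (23.3 ± 1.81 to 14.1 ± 2.09 CPM, log2-Fold change -0.72, edgeR Padj 0.00467), and Vldlr, the very low-density lipoprotein receptor (37.0 ± 1.20 to 23.3 ± 5.07 CPM, log2-Fold change -0.67, edgeR Padj 0.0101). The fold of Vldlr was under the threshold without IDPN-4wk replicate 2 (-0.50) and with scaling by library total alone (-0.56). The symbol Sorl1 was not found among the gene names used here.

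Of 8 receptor adaptors, chaperones and regulators tested, none passed both thresholds and all had a positive log2-Fold change, with a median of 0.36. Mylip, a ubiquitin ligase that marks lipoprotein receptors for degradation, had a Padj under 0.05 (log2-Fold change 0.41, edgeR Padj 0.00231) and was chosen here after its values were seen. Among 8 scavenger receptors tested, none passed both thresholds.

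Of 12 other apolipoproteins, only Apoc4 passed the filter on low counts, and Apoa2, Apof and Apon had 0 counts in every library. Of 10 other lipid transporters, 1 fell and none rose past both thresholds, against 6.62% and 3.09% of all genes. This was Abca8a, which went from 107 ± 14.1 to 38.8 ± 7.91 CPM (log2-Fold change -1.46, edgeR Padj 8.39e-05). Abca7 was under 1.5-fold (log2-Fold change 0.36, edgeR Padj 0.0282). None of 11 lipases and remodelling genes passed both thresholds. Lcat, which esterifies the cholesterol of HDL, came nearest to a call with a log2-Fold change of -0.49 (edgeR Padj 0.0387), which was -0.69 without IDPN-4wk replicate 3 and then passed both. With scaling by library total alone Lcat was at -0.38 and lost its Padj under 0.05 (edgeR Padj 0.0718). Pltp, the phospholipid transfer protein, gave -0.23 (edgeR Padj 0.136), and Angptl4, an inhibitor of lipoprotein lipase, one of 0.77 (edgeR Padj 0.133), which was 1.20 without control replicate 1 and then passed (edgeR Padj 0.0297).

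The liver X receptors (LXRs) sense oxysterols and drive genes such as Abca1, Abcg1, Apoe and Srebf1. Of 12 tested genes of this axis, 3 fell and 1 rose past both thresholds, against 6.62% and 3.09% of all genes. The receptors Nr1h2 and Nr1h3 (log2-Fold changes 0.11 and 0.04) and Srebf1 (-0.08) did not pass the test. Rxra, a heterodimer partner of the LXRs, named after its values were seen, fell from 19.2 ± 1.88 to 9.28 ± 3.33 CPM (log2-Fold change -1.04, edgeR Padj 0.00832). Scd, the stearoyl-CoA desaturase, fell from 213 ± 32.7 to 93.5 ± 10.1 CPM (log2-Fold change -1.19, edgeR Padj 8.79e-05). Smpdl3a, a phosphodiesterase, fell as well (log2-Fold change -0.77, edgeR Padj 5.55e-04). Rxrg rose from 3.43 ± 0.473 to 5.73 ± 0.465 CPM (log2-Fold change 0.74, edgeR Padj 0.0440), a call that was lost whichever library was left out, with Padj from 0.0620 to 0.124.

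Of 6 oxysterol enzymes, 1 fell and 1 rose past both thresholds, against 6.62% and 3.09% of all genes, and the others did not pass. Ch25h, which makes 25-hydroxycholesterol, rose from 5.66 ± 1.27 to 14.4 ± 1.14 CPM (log2-Fold change 1.34, edgeR Padj 8.67e-04), and Hsd3b7, an enzyme of bile acid synthesis, fell by 0.65 on the log2 scale (edgeR Padj 0.00558), though by less than 1.5-fold under scaling by library total alone (-0.55). In the PPAR axis, the lipid droplet coat gene Plin2 rose from 33.2 ± 0.723 to 53.2 ± 3.60 CPM (log2-Fold change 0.68, edgeR Padj 4.50e-04). It was the 1 gene of 6 tested that rose past both thresholds, against 3.09% of all genes, and none fell past them. None of 12 genes of endosomal and stored cholesterol and none of 8 genes of the SREBP2 axis passed both thresholds, while 3 of each list were lower with a Padj under 0.05, against 11.5% of all genes, and none was higher, against 7.89%. Among them, Npc1 and Npc2, which move cholesterol out of lysosomes, had log2-Fold changes of 0.12 and -0.21 (edgeR Padj 0.313 and 0.0831).

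**Figure D5:**
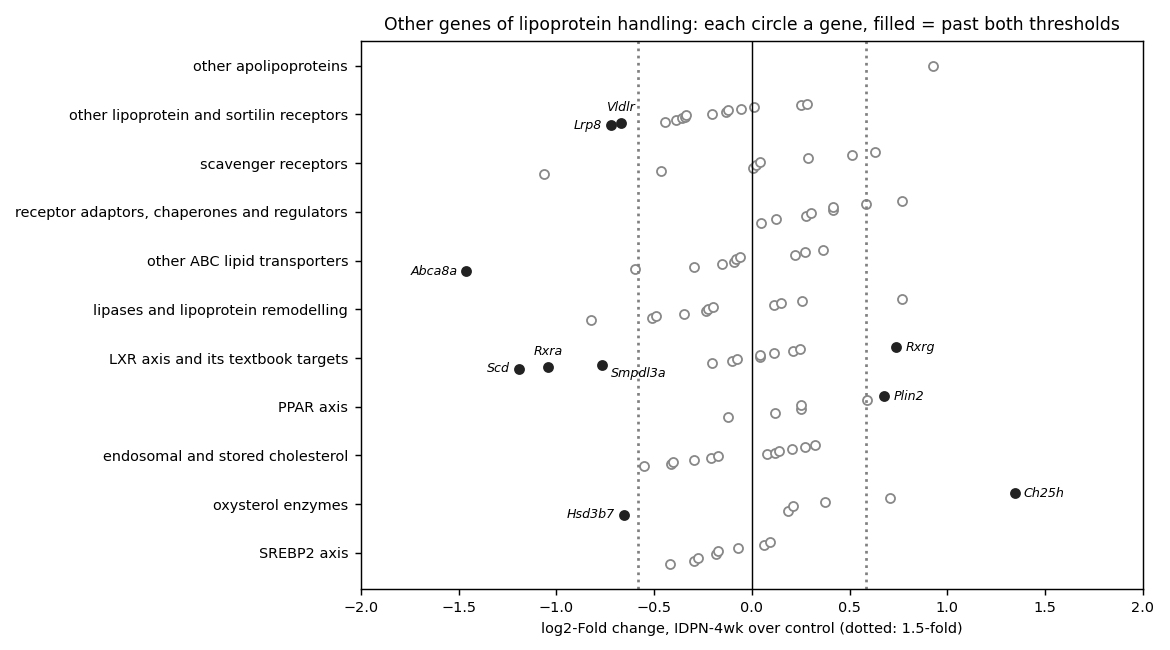
Log2-Fold change of IDPN-4wk over control for each of the 96 tested genes of 11 lists of lipoprotein and sterol handling (circles, 1 line per list), with dotted lines at 1.5-fold and the 10 genes past both thresholds filled and named. The filled circles number 7 on the lower side and 3 on the higher side, and all 8 adaptors, chaperones and regulators lie to the right of 0.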

How the data were processed

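RNA of the vestibular epithelium was reverse transcribed by the authors with an oligo-dT primer and amplified (SMART-seq2), and reads were mapped to Rnor6.0 with STAR 2.5.3a and counted with RSEM, version per the submitters' processing notes. The deposited values are expected counts per gene. They were whole numbers already, and rounding changed 0 values. Columns without a sample numbered 0. The protocol keeps no strand and uses no molecular identifiers, and RSEM shares reads among gene copies.

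Groups were taken from the treatment label. Replicate numbers follow accession order and pair nothing. The filter on low counts was filterByExpr with a minimum of 10 and a total of 15, libraries were scaled by TMM, and the groups were compared with the two-sided quasi-likelihood test of edgeR 4.0.16 in R 4.3.3 over 14352 genes, with Benjamini-Hochberg adjustment over all of them. Padj under 0.05 and a fold over 1.5 were required together. SEs come from the quasi F statistic and intervals are 95%. CPM are counts scaled to a common library size after TMM, and likeness used log2 CPM with a prior count of 2. A count of 0 allows up to 3 counts (counting error only).

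The genes and lists were chosen with earlier results of these data known. Named were all 10 genes, fixed partners, up to 2 genes per list and direction with the smallest p past both thresholds, and the 5 genes likest to Apoe. Rxra, Mylip, the genes likest to Lrp2, the neighbours of Apoe and the individual cell type markers were picked with their values in view. Alternatives were other scalings (DESeq2 size factors, upper quartile, library total), removal of the Apoe counts, DESeq2 1.42.0, other filters, other thresholds and each library left out. The code was tested on simulated data. Sequences are from RefSeq. Some genes of the lists are not reported here.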

Additional observations from a re-analysis of the deposited data

How the results depend on the processing

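The falls of Lrp2 and Apoe and the rise of Apoc1 kept their direction, their side of Padj 0.05 and their side of 1.5-fold in every other fit that gave a value. Over all 10 genes, 3 of 129 alternative values changed sign, and 3 others crossed Padj 0.05, the 2 of Apod and 1 of Clu given with these genes. Abcg1 was 0.026 with scaling by library total alone. Over fits that left out 1 library, Scarb1 was from -0.29 to 0.12 (above 0 without control replicate 2) and Lpl from -0.0049 to 0.17 (below 0 without IDPN-4wk replicate 1). Of the other genes named, Srebf1 was 0.031 with library totals alone, Nr1h3 was from -0.058 to 0.11 over fits that left out 1 library (below 0 without control replicate 2 or IDPN-4wk replicate 3), and Tyrp1 from -0.088 to 0.62 (below 0 without IDPN-4wk replicate 2). The cause was not tested. Rxrg was not called by DESeq2 (Padj 0.0662) or without the filter on low counts (edgeR Padj 0.0510). With edgeR's test against a fold of 1.5 (glmTreat), 453 genes passed in all, 3 of the other genes of lipoprotein handling, and both Lrp2 and Apoc1. With Padj under 0.05 alone, 2778 genes passed in all, 4 of the 10 lipoprotein genes and 26 of the other genes. Leaving out each library gave 1085 to 1581 genes past both thresholds. The further alternatives for other genes (signs and calls unchanged in 458 of 491) and for within-library ratios were added after seeing the data. Apoe has no value in the fit without its counts. No paired analysis was possible because the labels give no replicate numbers. Few counts limit Apoc1 (15 to 162 per library). With 3 animals per group, an interval that includes 0 does not show that a gene was unaltered.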
